A study of Mus musculus with 12 samples.

Results

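The neutrophil granule genes are S100a8, S100a9, Ngp, Camp, Ltf, Mmp8, Chil3, Retnlg, Elane and Mpo, a group of 10 genes that encode proteins stored in the granules, or held at high level in the cytosol, of neutrophils. They were chosen by symbol after single muscle arrays had been seen to carry them, so their levels in muscle are given as a description and without a test. A probe set, the set of short oligonucleotides that reads a transcript on the array, was taken for a gene where the annotation of the array gives it that symbol alone. This found 9 of the 10 genes, with 1 probe set each, among 45037 probe sets and 18193 genes named in this way. Retnlg had no such probe set and is named only.

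RNA of gonadal white adipose tissue (WAT), skeletal muscle (M. vastus lateralis) and liver was measured on 12 Affymetrix whole-genome mouse arrays, 2 for each tissue and treatment. All mice, controls included, were 12-week-old Ghsr-/- females on the C57BL/6 background, which lack the growth hormone secretagogue receptor, the known receptor of acylated ghrelin. They received saline or 20 nmol/kg unacylated ghrelin (UAG) intraperitoneally, and whole tissues were frozen 6 h later, so the study asks which transcripts UAG alters within hours in animals without that receptor. No wild-type mouse was among the arrays. Each replicate is named here by tissue, treatment and the number in its label, and since the labels do not tie arrays to mice, every p-value measures the spread between these arrays only. Levels are intensities, obtained by returning the deposited log2 values to the linear scale. For ratios, values below 30, the threshold of the study's methods, were set to 30. Within a tissue the arrays correlated at 0.925 to 0.962, and 56.2 to 56.3% of probe sets lay at or above 30 on each array. All 10 measured skeletal muscle genes were higher on every muscle array than on any other array, as were 8 of 9 hepatocyte genes in liver (exception Cyp2e1) and 4 of 6 adipocyte genes in WAT (exceptions Lep and Fabp4). The muscle arrays also carried adipocyte transcripts, with Adipoq, the adipokine adiponectin, between 7674 and 11935.

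Neutrophils build their granules in steps while they mature in bone marrow. The primary (azurophil) granules are filled at the promyelocyte stage with serine proteases and myeloperoxidase, the secondary (specific) and tertiary (gelatinase) granules are filled later with lactoferrin, cathelicidin and metalloproteases, and transcription of most of these genes has ended when the cell enters the blood. The calcium-binding proteins S100a8 and S100a9 are made in quantity through the later stages and by mature cells. In a homogenate of whole tissue, fewer cells of a type and less RNA per cell cannot be told apart.

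C/EBP factors and PU.1 are the textbook activators of granule genes. The proximal promoters of 5 of the genes, each of which holds a match, are shown as a description of sequence. A link between these letters and the levels on the arrays was not tested. Each sequence is the 250 bases before the RefSeq transcription start (GRCm38.p6), 5′ to 3′ on the coding strand. Capitals mark the letters TTGCNNAA (C/EBP) or GAGGAAG (PU.1), searched on both strands. Elane and Mpo serve the primary granules, Ngp and Ltf the secondary granules, and S100a8 the cytosol.
Elane: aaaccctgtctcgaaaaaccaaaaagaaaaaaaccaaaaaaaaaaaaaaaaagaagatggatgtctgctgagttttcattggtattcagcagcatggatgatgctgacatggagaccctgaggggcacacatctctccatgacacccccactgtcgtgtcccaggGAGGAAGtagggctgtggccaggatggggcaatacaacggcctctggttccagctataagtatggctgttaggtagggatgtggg
Mpo: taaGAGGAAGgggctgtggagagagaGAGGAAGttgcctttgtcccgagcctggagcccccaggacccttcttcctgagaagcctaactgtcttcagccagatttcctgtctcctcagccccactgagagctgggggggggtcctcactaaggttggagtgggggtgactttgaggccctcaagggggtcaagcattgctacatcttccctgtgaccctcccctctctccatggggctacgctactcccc
Ngp: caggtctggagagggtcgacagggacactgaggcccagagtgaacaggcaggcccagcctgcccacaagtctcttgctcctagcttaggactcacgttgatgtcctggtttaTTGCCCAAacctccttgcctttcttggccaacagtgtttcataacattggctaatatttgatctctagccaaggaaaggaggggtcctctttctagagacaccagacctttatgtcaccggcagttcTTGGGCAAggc
Ltf: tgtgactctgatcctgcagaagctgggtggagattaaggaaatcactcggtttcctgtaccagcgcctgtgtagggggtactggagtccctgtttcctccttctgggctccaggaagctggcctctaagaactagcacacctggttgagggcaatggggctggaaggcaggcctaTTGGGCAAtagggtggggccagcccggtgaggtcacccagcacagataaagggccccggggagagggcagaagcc
S100a8: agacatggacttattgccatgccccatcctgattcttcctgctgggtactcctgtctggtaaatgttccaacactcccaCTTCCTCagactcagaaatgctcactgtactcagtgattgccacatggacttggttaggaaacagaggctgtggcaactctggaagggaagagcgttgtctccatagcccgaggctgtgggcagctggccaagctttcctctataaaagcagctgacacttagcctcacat
These windows lie at chr10:79886062-79886311 (Elane), chr11:87793534-87793783 (Mpo), chr9:110419558-110419807 (Ngp), chr9:111019042-111019291 (Ltf) and chr3:90668821-90669070 (S100a8), all on the plus strand.

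The PU.1 letters stood in Elane and Mpo, the C/EBP letters in Ngp and Ltf, and neither in Camp or Chil3. Elane held a PU.1 match 85 bases before its start, and Mpo held matches at 247 and 224 bases. Ngp held C/EBP matches at 138 and, on the minus strand, 11 bases, and Ltf held a minus-strand match at 75 bases. In S100a8 a PU.1 match stood on the minus strand at 171 bases. Of the 9 measured genes, 4 (S100a9, Mmp8, Ngp and Ltf) held a C/EBP match, against 9.56% of all 32851 promoters of the same length. A PU.1 match was found in 4 (S100a8, Mmp8, Elane and Mpo), against 10.6% of all promoters. A match is a description of letters and not evidence of binding. S100a8 and S100a9 are neighbours on chromosome 3, and Elane lies beside Prtn3, another primary granule protease, on chromosome 10.

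Among the primary granule genes, Elane encodes neutrophil elastase. Its level in muscle was 8.706 and 42.89 with saline and 30.65 and 204.3 with UAG, in the order of the replicate numbers. In WAT it was 27.5 and 49.53 with saline and 32.74 and 51.26 with UAG, and in liver 6.201 and 49.04 with saline and 10.14 and 6.66 with UAG. Muscle UAG replicate 2 was the brightest array for Elane, and the other arrays lay near or below the threshold. Mpo encodes myeloperoxidase, which makes hypochlorous acid. It read 23.06 and 15.79 with saline and 34.05 and 319.9 with UAG in muscle. The WAT levels were 17.68 and 32.59 with saline and 30.03 and 18.6 with UAG, and the liver levels 53.86 and 13.58 with saline and 22.17 and 25.6 with UAG. Again a single array, muscle UAG replicate 2, stood clear of the threshold by several fold.

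Of the secondary granule genes, Ngp encodes neutrophilic granule protein, a cystatin-like protein. In muscle it measured 53.46 and 65.24 with saline and 54.65 and 1280 with UAG. All 4 WAT arrays were below 30 (20.79 to 26.63), and liver held 29.19 and 51.65 with saline and 58.45 and 75.67 with UAG. Outside muscle UAG replicate 2 the gene was dim but mostly measurable in muscle and liver. Camp encodes the cathelicidin antimicrobial peptide. In muscle it lay at 27.92 and 36.69 with saline and at 29.12 and 601.6 with UAG, while the 8 arrays of WAT and liver ranged from 5.43 to 16.88. Thus only 2 of the 12 arrays passed 30 for Camp, muscle saline replicate 2 and muscle UAG replicate 2.

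Ltf encodes lactoferrin, the iron-binding protein of the secondary granules, and it was the member with 2 bright muscle arrays. It read 4.547 and 270.5 with saline and 73.28 and 412.2 with UAG in muscle. WAT gave 10.63 and 54.74 with saline and 9.814 and 11.94 with UAG, and all liver arrays were below 30 (8.239 to 29.69). Saline and UAG arrays of muscle therefore overlapped, with muscle saline replicate 2 second to UAG replicate 2. Mmp8, the neutrophil collagenase, was dim: it reached 94.02 on muscle UAG replicate 2, and the other 11 arrays lay between 14.87 and 29.12, all below 30.

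S100a8 and S100a9, the subunits of calprotectin, were measurable in all 3 tissues. For S100a8, muscle held 78.31 and 188.5 with saline and 82.74 and 2172 with UAG. WAT held 59.82 and 356.8 with saline and 83.42 and 42.82 with UAG, and liver 61.28 and 90.76 with saline and 67.96 and 41.99 with UAG. For S100a9, muscle held 56.08 and 122.9 with saline and 55.78 and 2630 with UAG. The WAT levels were 26.03 and 232.9 with saline and 39.53 and 6.273 with UAG, and the liver levels 46.41 and 81.17 with saline and 84.05 and 35.72 with UAG. Both genes were thus highest on muscle UAG replicate 2, next on WAT saline replicate 2 and then on muscle saline replicate 2. Chil3 encodes Ym1, a chitinase-like lectin that macrophages also make. It read 28.71 and 50.84 with saline and 64.67 and 598.2 with UAG in muscle, and 38.74 and 141.1 with saline and 27 and 7.845 with UAG in WAT. All liver arrays were below 30 for Chil3 (2.91 to 15.2).

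**Figure D1:**
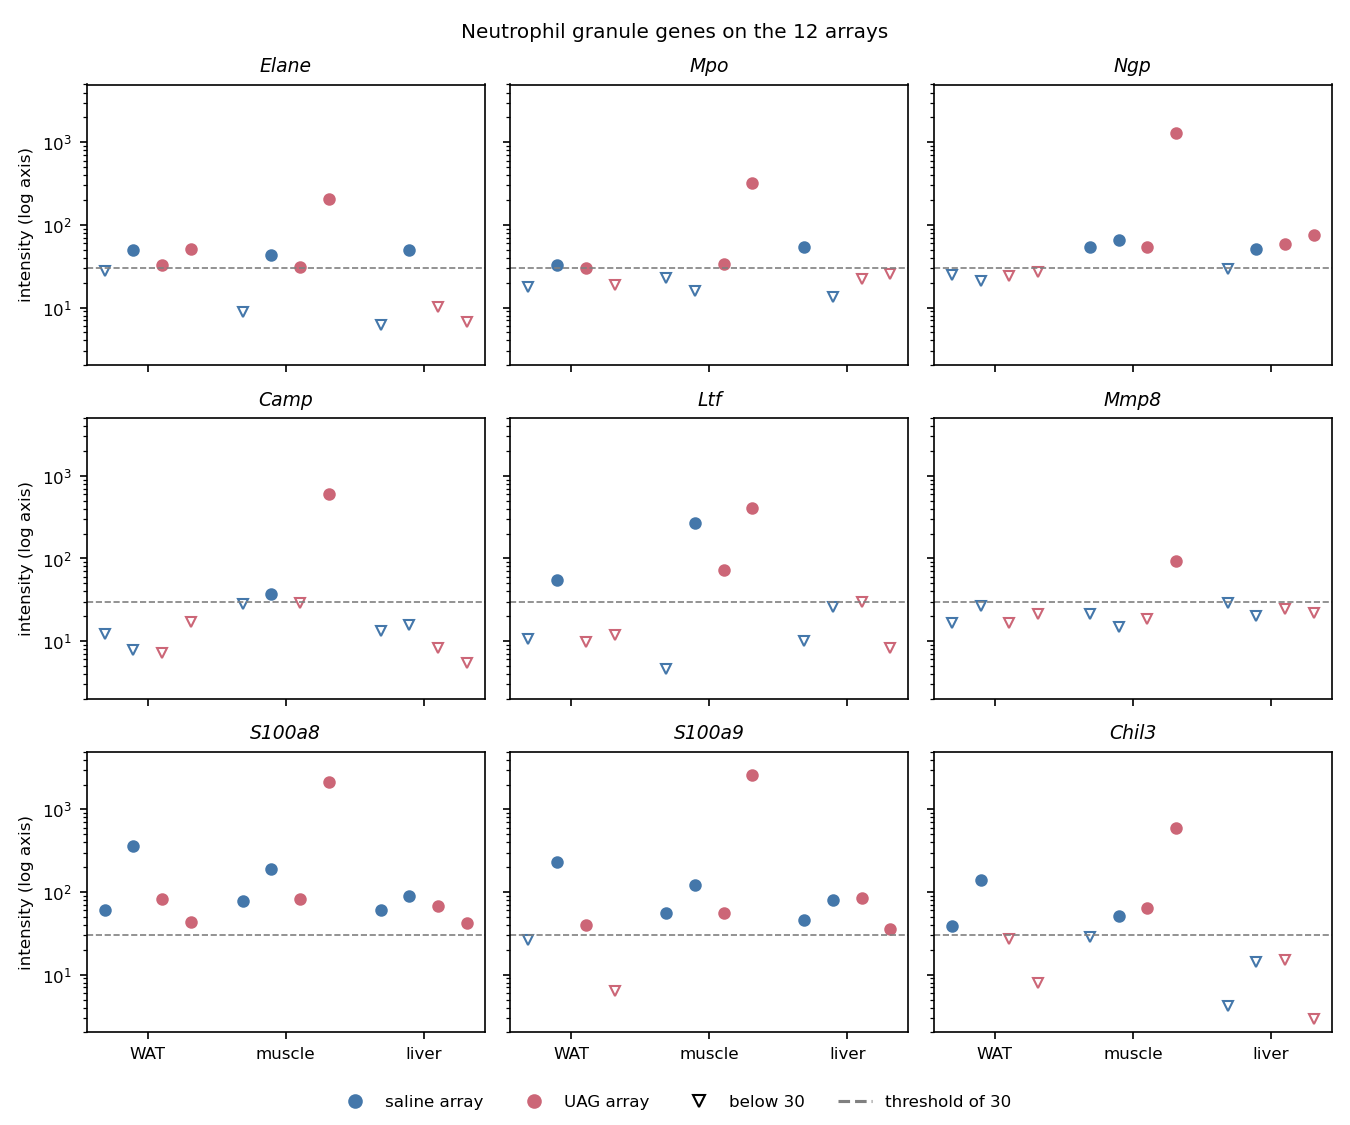
Intensity (log axis) of the 9 measured neutrophil granule genes on each of the 12 arrays, by tissue, with blue for saline, red for UAG and open triangles for values below the threshold of 30 (dashed). In every panel the highest point is muscle UAG replicate 2, and only S100a8, S100a9 and Chil3 also have a WAT array, saline replicate 2, above 100.

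Muscle UAG replicate 2 was the highest muscle array for all 9 genes, as it was for 12.4% of the 18193 genes named by a single symbol. There, 8 genes stood at least 2-fold above every other muscle array, where 0.129% of all probe sets did (58 of 45037), and 7 stood at least 4-fold above, where 0.0266% did (12). Since the genes were chosen on this pattern, these counts are descriptive. More probe sets stood out on muscle saline replicate 2, with 150 at least 2-fold and 21 at least 4-fold above every other muscle array, and 5 of 6 adipocyte genes were highest there. On muscle UAG replicate 2 the excess was 21.4-fold for S100a9, 19.6-fold for Ngp, 16.4-fold for Camp, 11.5-fold for S100a8, 9.4-fold for Mpo and 9.25-fold for Chil3. These 6 genes filled ranks 1 to 6 among all probe sets on that array. Elane followed at 4.76-fold (rank 10) and Mmp8 at 3.13-fold over the threshold (rank 19). Ltf, at 1.52-fold, ranked 233 because muscle saline replicate 2 was also bright. No member reached 2-fold excess on any of the other 3 muscle arrays. Among the 12 probe sets past 4-fold, 7 were members, and those of Ppbp, a platelet chemokine, and Ibsp, the bone matrix protein integrin-binding sialoprotein, were also named by 1 gene. The remaining 3 were a probe set that names Chil3 together with Chil4 and 2 without a symbol.

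**Figure D2:**
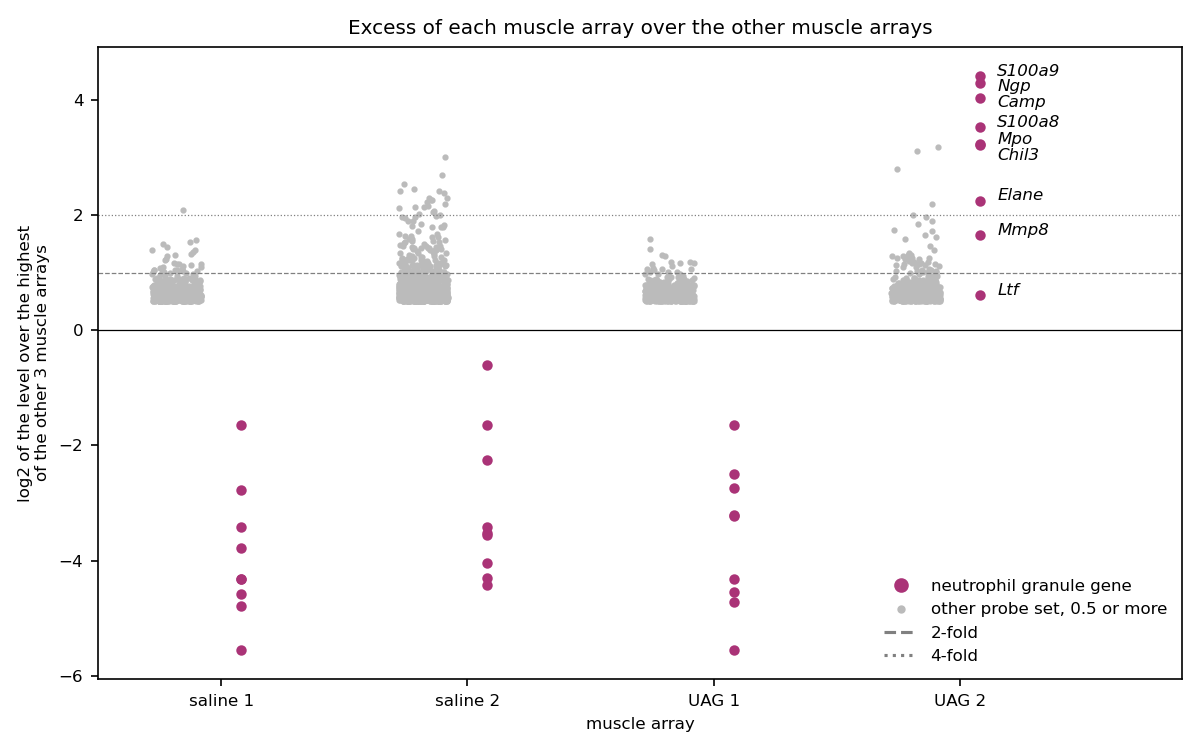
Excess of each muscle array over the highest of the other 3 muscle arrays (log2, after values below 30 were set to 30), for the neutrophil granule genes (purple) and for all other probe sets with an excess of 0.5 or more (grey). The genes lie above 0 on UAG replicate 2 alone, from 0.61 for Ltf to 4.42 for S100a9, and below 0 on the other arrays.

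By the ratio of the group means in muscle, 8 of the 9 genes were at least 2-fold higher with UAG, where 0.133% of all probe sets were. The ratio of S100a9 was 15.01, from 89.47 ± 47.23 (SD, n = 2) with saline to 1343 ± 1820 with UAG, and that of Ngp 11.25, from 59.35 ± 8.323 to 667.5 ± 866.7. Ratios of the other genes were 9.47 (Camp), 8.448 (S100a8), 8.199 (Chil3), 5.899 (Mpo), 3.223 (Elane), 2.067 (Mmp8) and 1.616 (Ltf). The SD of the 2 UAG arrays exceeded their mean in 7 of these 8 genes, and for Mmp8 the mean was 62.01 ± 45.27. Both UAG arrays lay above both saline arrays, after the floor, for Chil3 and Mpo, where 6.71% of all probe sets did so. The median log2 difference of the 9 genes was 1.80, beside 0.00 over all probe sets. Without UAG replicate 2 it was -0.15, and no member was 2-fold higher. limma, a linear model fitted across all probe sets, called 0% of the 25105 probe sets of muscle at an adjusted p below 0.05, and 468 had an unadjusted p below 0.05.

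In WAT, S100a8, S100a9 and Chil3 had lower means with UAG, and the difference lay in saline replicate 2. The UAG to saline ratio was 0.303 for S100a8, 0.2645 for S100a9 and 0.3336 for Chil3, past the 2-fold rule in the lower direction, as 0.859% of all probe sets were. On WAT saline replicate 2 these 3 genes stood at least 2-fold above every other WAT array, where 0.879% of all probe sets did, and S100a8 (4.28-fold) and S100a9 (5.89-fold) at least 4-fold, where 0.149% did. Without that array none of the 9 genes was 2-fold lower. Chil3 was the member with both UAG arrays below both saline arrays, where 8.87% of all probe sets were. By limma, S100a8 differed by a log2 value of -1.29 (SE 0.83, adjusted p = 0.8086), S100a9 by -1.28 (SE 0.90) and Chil3 by -1.30 (SE 0.58). S100a9 and Chil3 passed the filter on mean intensity only through saline replicate 2, so no p-value is given for them. Elane, the other member of 4 that passed the filter on dim probe sets, differed by 0.09 (SE 0.35). limma called 0% of the 25307 probe sets in WAT, where 1723 had an unadjusted p below 0.05. S100a8 and Elane were not among these. So the lower mean of S100a8 did not exceed the spread between arrays. For S100a9 and Chil3 no such reading is made.

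In liver no member reached the 2-fold rule, which 0.238% of all probe sets passed in the higher and 0.193% in the lower direction. Ngp was the member in which both UAG arrays lay above both saline arrays, where 9.03% of all probe sets did, with a log2 difference of 0.76 (SE 0.37, adjusted p = 0.9998 by limma). S100a8 differed by -0.48 (SE 0.37) and S100a9 by -0.16 (SE 0.47), and the other 6 genes did not pass the filter. Of the 25160 probe sets tested in liver limma called 0.00397%, which is 1 and not a member. S100a8 and S100a9 passed the filter in both WAT and liver. Their UAG effect in WAT minus that in liver was -0.81 (SE 1.75) and -1.11 (SE 2.03) on the log2 scale. Neither difference was called by the interaction term of limma (adjusted p of 1). That term came from the fit that also held the muscle arrays, so its SE includes their spread. For S100a9 the muscle UAG arrays read 55.78 and 2630. The genes were chosen on that spread, so the interaction term cannot decide whether the UAG effects in WAT and liver differed.

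WAT and liver were also compared with each other, a contrast the choice of genes did not use. In a fit to all 12 arrays limma called 59.2% of 26530 probe sets. Of the members, S100a8, S100a9, Ngp and Chil3 passed the filter on the WAT and liver arrays alone, and none of these 4 was called in that fit. Camp, Ltf, Elane and Mpo entered it only through their muscle levels and are not counted. S100a8 averaged 135.7 ± 148.3 in WAT and 65.5 ± 20.12 in liver (SD, n = 4), a log2 difference of 0.57 (SE 0.88, adjusted p = 0.605). Ngp averaged 53.94 ± 18.89 in liver and lay below 30 on all 4 WAT arrays, a log2 difference of -0.77 (SE 0.72, adjusted p = 0.382). Fitted to the 8 WAT and liver arrays alone, without the muscle arrays and their spread, the Ngp difference of -0.77 had an SE of 0.20 and an adjusted p of 0.0106. The floor set all 4 WAT values of Ngp to 30 (SD 0), so WAT added no spread and this p is descriptive. With a floor of 100, in the fit to all 12 arrays, the Ngp difference was 0.00. Over these 8 arrays Ngp passed the filter through liver and Chil3 through WAT, the tissue where each was higher. For both genes the outcome of either fit is therefore descriptive. In that smaller fit S100a8 (0.57, SE 0.52, adjusted p = 0.373) and S100a9 (-0.11, SE 0.60, adjusted p = 0.883) were not called. Chil3 differed by 0.65 (SE 0.35). It passed the filter only through WAT saline replicate 2, and the floor set all 4 of its liver values to 30, so no p-value is given.

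The likeness of the genes to each other was read across the 12 arrays. With the mean of its tissue removed, each member correlated with the mean of the other members at 0.896 (Mpo) to 0.945 (S100a9), except Ltf at 0.759. These values are a description, and the 12 arrays behind them include the bright array that all members share and on which they were chosen. On WAT saline replicate 2 the excess over the other WAT arrays was 5.89-fold for S100a9, 4.28-fold for S100a8 and 1.09-fold for Mpo. The mean deviation of the 9 genes on the log2 scale was 2.65 on muscle UAG replicate 2 and 0.74 on WAT saline replicate 2. On the other muscle arrays it was -1.26 and -0.43 with saline and -0.96 with UAG, and on the liver arrays it lay between -0.12 and 0.15. Of 9803 other genes compared, 14 correlated with this profile at 0.9 or more.

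The 10 most alike were Rgs18 (Pearson r 0.968), Mki67 (0.952), Ctsg, Cd177, Ibsp, Prg2 and Hemgn (0.944 each), Itgb2 (0.929), Slc4a1 (0.922) and Dna2 (0.919), over the 12 arrays. Ctsg (cathepsin G, a primary granule protease), Cd177 (a neutrophil surface protein), Prg2 (the major basic protein of eosinophil granules), Hemgn (hemogen, of erythroid precursors) and Ibsp passed 30 on muscle UAG replicate 2 alone. Their levels there were 117.4 for Ctsg, 71.45 for Cd177, 71.26 for Prg2, 66.08 for Hemgn and 137.6 for Ibsp. Their equal r reflects that 1 array, after the floor. Itgb2, the leukocyte integrin chain CD18, was above 30 on all 12 arrays, with 85.22 and 125.2 with saline and 116 and 197.4 with UAG in muscle. Mki67, the proliferation marker Ki-67, read 89.98 on muscle UAG replicate 2 and at most 16.41 on the other muscle arrays.

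**Figure D3:**
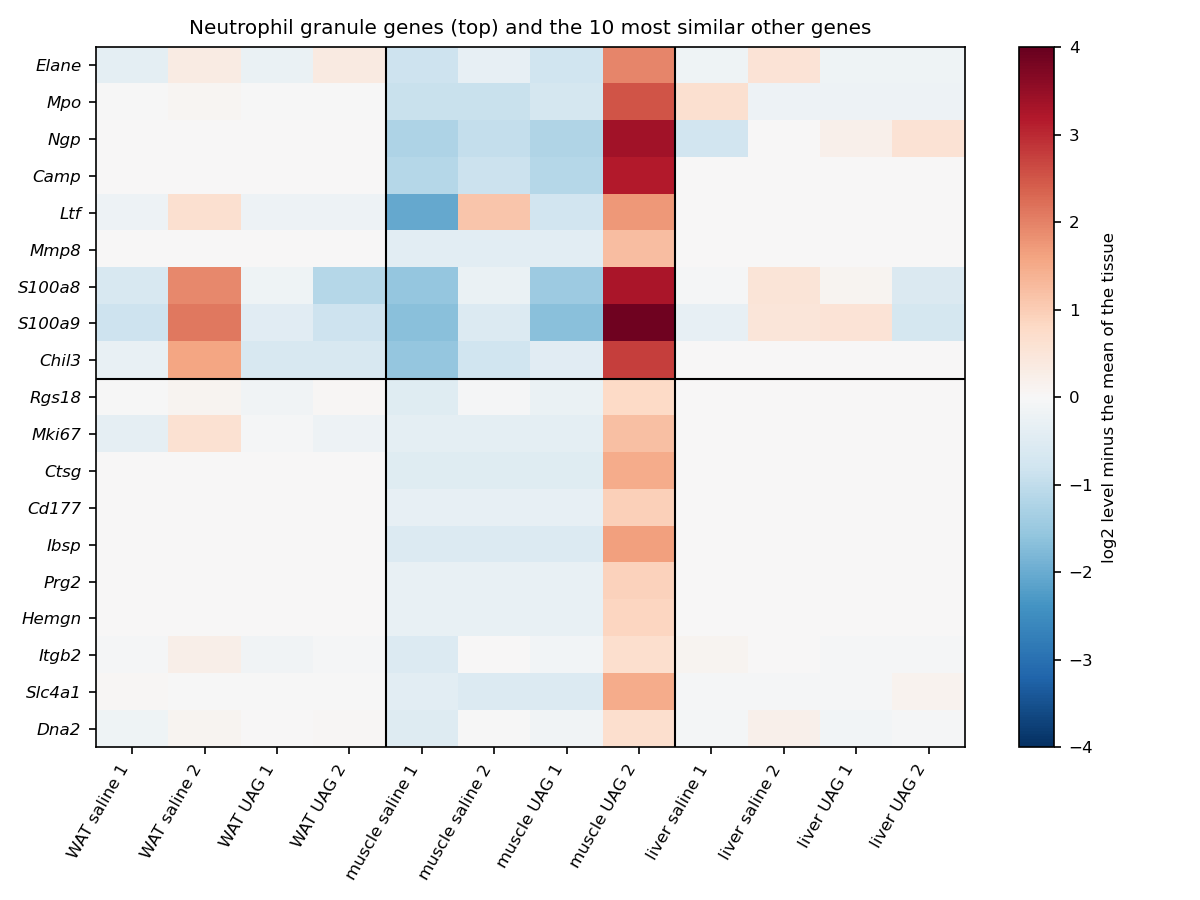
Log2 level minus the mean of the tissue, after values below 30 were set to 30, for the 9 neutrophil granule genes (top) and the 10 other genes most like them (bottom) on the 12 arrays. The darkest red column is muscle UAG replicate 2, where the mean deviation of the 9 genes was 2.65, and WAT saline replicate 2 is red for S100a8, S100a9 and Chil3.

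Other genes of the neutrophil lineage were read from lists that hold no member, with the 12.4% of all genes that were highest on muscle UAG replicate 2 as the background. That share also counts genes that tie at the floor on all muscle arrays. Among genes with a single highest array it is therefore larger. The marker lists, here and below, were chosen with earlier results of these data known, so their counts are descriptive. Of 6 measured primary granule genes, 5 were highest among the muscle arrays on UAG replicate 2, and Ctsg exceeded the others 2-fold. Prtn3, proteinase 3, read 9.419 and 110.4 with saline and 57.33 and 147.4 with UAG, so it was also high on saline replicate 2. Of 11 further secondary and tertiary granule genes, 8 were highest on UAG replicate 2 and 1, Cd177, exceeded the others 2-fold. Lcn2, the siderophore-binding lipocalin, read 57.66 and 240.9 with saline and 69.98 and 355.6 with UAG, the same order of arrays as Ltf. Mmp9, gelatinase B, read 69.47 and 123.2 with saline and 72.29 and 160.8 with UAG.

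Of 23 measured genes of the mature neutrophil list, 11 were highest on muscle UAG replicate 2. Among them 1 exceeded the others 2-fold, Fpr2, a formyl peptide receptor, at 86.04 against 29.62 to 31.13. Not all genes of the list are particular to neutrophils in these tissues. Wfdc21 read 6132 to 7993 and Lrg1 2762 to 3830 in liver, above their levels on every muscle array. Of the 23, 3 lay below 30 on all 12 arrays, and these were Cxcr2, the chemokine receptor of mature neutrophils, Stfa3 and Stfa2l1, named after their values were seen. Slfn4 was higher on saline replicate 2 (93.75) than on UAG replicate 2 (82.72). Among 7 regulators of granule genes, 1 was highest on UAG replicate 2, which was Spi1, the gene of PU.1, at 85.11 against 19.2 to 64.83. Among 12 genes of neutrophil recruitment, 2 were highest there, and Cxcl1, a neutrophil chemoattractant, was lower (99.71) than on the other 3 muscle arrays (102 to 184.3).

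Some markers of other blood and marrow cells were also highest on muscle UAG replicate 2, and their part in the result was not tested. Of 13 erythroid genes, 9 were highest there and 2 at least 2-fold, Slc4a1, the anion exchanger band 3, at 121.4 against 8.629 to 32.53 and Hemgn. The summed level of the erythroid list was 740.9 on that array and 420.8 to 467.8 on the other muscle arrays. That sum leaves out 4 bright haemoglobin probe sets, each of which names several globin genes. The beta globin probe set read 4341 and 8149 with saline and 6714 and 8934 with UAG, so UAG replicate 2 was highest but close to saline replicate 2. Of 8 platelet genes, 5 were highest and 2 at least 2-fold, Ppbp at 258.5 against 24.59 to 26.74 and Tubb1 at 66.19. The other platelet genes that were highest there exceeded the rest by at most 1.14-fold (Treml1), and Gp1bb was lowest there (31.06 against 35.8 to 59.98). The platelet list summed to 1131 against 574.1 to 857.4, a sum that includes the 258.5 of Ppbp. Of 12 cell cycle genes, 10 were highest and 3 at least 2-fold, among them Mki67 and Rrm2, with a summed level of 938.5 against 485 to 552.5. Macrophage genes were highest there in 9 of 13, none of them by 2-fold, with a sum of 6581 against 3362 to 4809. Of 4 monocyte genes 2 were highest, with a sum of 1018 against 567.4 to 762.3.

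Lymphocyte, mast cell and bone markers gave mixed counts. Of 11 B lymphocyte genes, 3 were highest on muscle UAG replicate 2 and 1 exceeded the others 2-fold, Ighm, the heavy chain of immunoglobulin M, at 370.1 against 131 to 164.8. The summed level of that list was 952.8 against 670.1 to 711.2. For T and NK lymphocytes, 2 of 7 genes were highest, with a sum of 266.4 against 211.2 to 229.7. Mast cell and eosinophil genes were highest there in 3 of 9 and at least 2-fold in 1, Prg2 (71.26 against 13.58 to 15.77), with a sum of 699.4 within the range of the other arrays (539.3 to 947.3), and Cma1, mast cell chymase, was highest on UAG replicate 1 (282.9). Of 11 osteoblast and osteoclast genes, 3 were highest, Ibsp alone by 2-fold, and the sum of 1483 lay within 1072 to 1898. Skeletal muscle genes summed to 121658 on that array and to 117151 to 121028 on the others. Median log2 differences between UAG and saline in muscle were 0.62 for the primary granule list and 0.40 to 0.48 for the other neutrophil granule, mature neutrophil, macrophage, monocyte, erythroid, platelet, lymphocyte, mast cell and cell cycle lists. They were 0.34 for recruitment, 0.26 for hepatocyte, 0.01 for skeletal muscle, 0.00 for adipocyte, -0.05 for granule gene regulators and -0.10 for bone genes. Over all probe sets the median was 0.00, and over those in the fit -0.002. The list medians cover only genes that passed the muscle filter, from 2 (B lymphocyte, monocyte, hepatocyte) to 15 (mature neutrophil) per list. Some, among them Ctsg, Slc4a1, Ppbp and Tubb1, passed only through UAG replicate 2. That filter favours genes high on this array, so the medians are descriptive. Over all lists, 172 genes were measured, 96 entered the fit of muscle, 13 had an unadjusted p below 0.05 and limma called none.

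**Figure D4:**
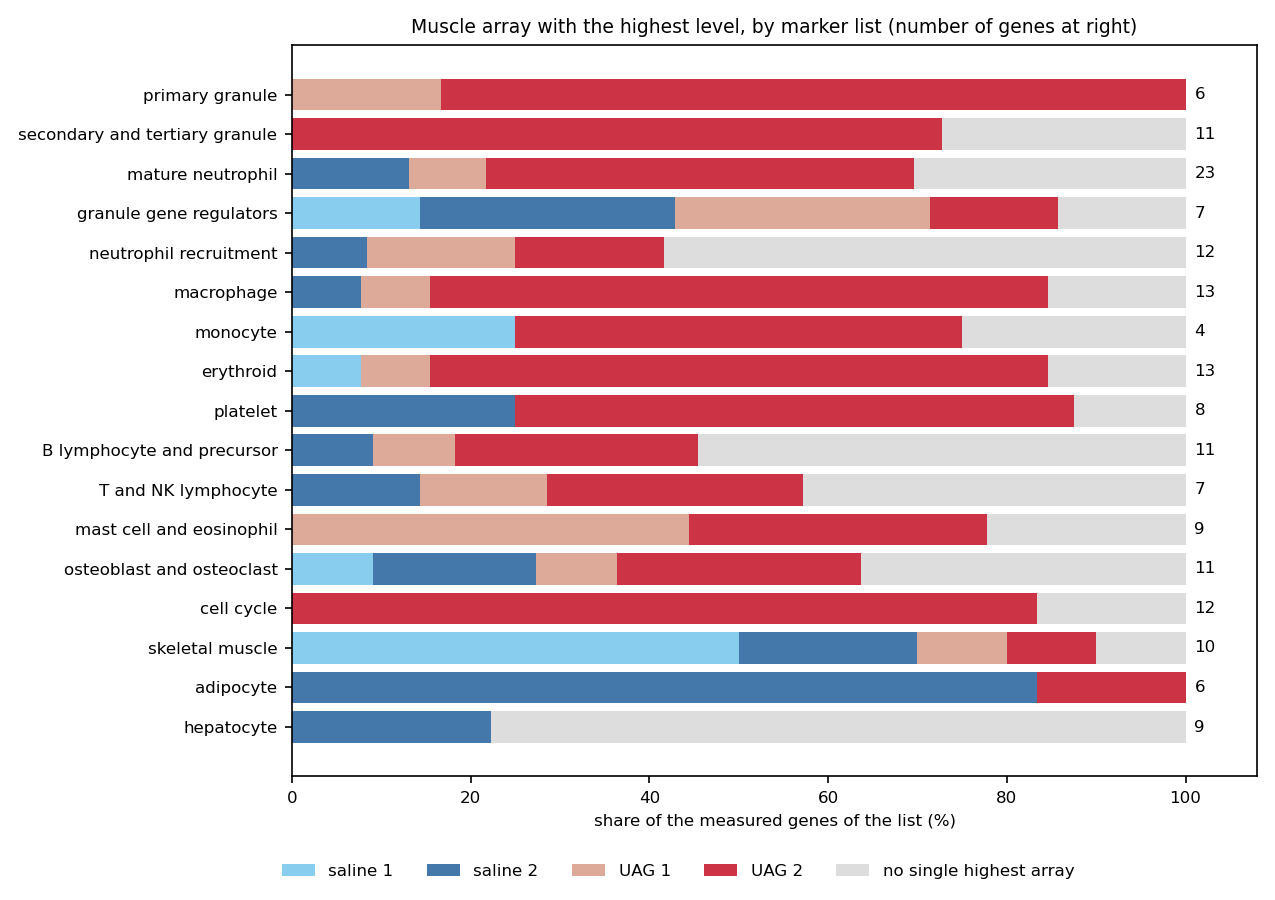
Share of the measured genes of each marker list (percent, with the number of genes at right) whose highest muscle level fell on each of the 4 muscle arrays, and in grey those without a single highest array after values below 30 were set to 30. UAG replicate 2 holds 10 of 12 cell cycle genes, 9 of 13 erythroid genes and 5 of 6 primary granule genes, and 1 of 10 skeletal muscle genes.

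Across all genes, in the lists or not, the 10 other than members with the largest excess on muscle UAG replicate 2 were Ppbp (8.62-fold), Ibsp (4.59), Ctsg (3.91), Slc4a1 (3.73), Slc15a2 (3.57), Prg4 (3.14), Mki67 (3), Fpr2 (2.76), Ccna2 (2.47) and Ifitm6 (2.45). Prg4, the joint lubricant lubricin, read 901.6 on that array and 149.1 to 287.6 on the other muscle arrays. Slc15a2, a peptide transporter, read 261.5 against 38.61 to 73.2, and it was also high on WAT UAG replicate 2 (306.1). The 3′/5′ ratio of Actb, a sign of RNA integrity, was 1.08 on muscle UAG replicate 2 and 0.898 to 1.13 on the other muscle arrays.

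On WAT saline replicate 2, where S100a8, S100a9 and Chil3 were high, 11 of 23 mature neutrophil genes and 9 of 12 cell cycle genes also had their highest WAT level, as did 3427 of all 18193 genes. The cell cycle list summed to 884.8 there against 560.7 to 632.7 on the other WAT arrays, and its part in the result was not tested. Slfn4 read 129.9 there against 25.79 to 43.64 on the other WAT arrays, and Lcn2 114.9 against 12.2 to 58.39. Mki67 read 59.69 against 15.42 to 37.13. Ltf was also highest there, at 54.74 against at most 11.94, which is 1.82-fold after the floor. Prtn3 (110.4) lay within the range of the other WAT arrays (84.1 to 165). Elane, Mpo, Ngp, Camp and Mmp8 were no more than 1.09-fold above the other WAT arrays after the floor. All 9 measured members were highest on muscle UAG replicate 2, the array they were chosen on. Members shared between that array and WAT saline replicate 2 were therefore given in advance. Only Hbb-b2, Alas2 and Slc4a1 of the 13 erythroid genes passed the floor on any WAT array. None of these was highest on WAT saline replicate 2. The other erythroid genes tied at the floor on all WAT arrays, so low signal kept them from having a highest array. The comparison rests on 1 array in each tissue and was not tested.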

How the data were processed

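Deposited values are log2 intensities per probe set. Per the labels' processing notes the authors used MAS5, without a version, and the methods name quantile normalization on present calls in R, an intensity threshold of 30 and a rule of 2-fold between group means. The genome build and the logarithm's base are not given in the sources used here, and base 2 was taken, so every intensity and ratio rests on that base. Values below the threshold are still in the table.

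Intensities were obtained from the deposited log2 values, floored at 30 and transformed to log2 again. Control probe sets (64) were left out. Of 45037 others, 34945 had 1 gene symbol in the platform annotation, 932 several and 9160 none. Each member had 1 probe set. A listed gene with several probe sets was read from its brightest by mean over the 12 arrays. limma 3.58.1 (R 4.3.3), with an intensity trend, was fitted per tissue, and over all 12 arrays with a mean per group for WAT against liver and for the interaction, where the mean intensity before the floor reached 30, with Benjamini-Hochberg adjustment across every probe set fitted. The script was tested on simulated data.

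The members and marker lists were chosen with earlier results of these data known. Named were all members, per list up to 4 genes with the largest range over the muscle arrays, the 10 genes most like the members (Pearson r over 12 arrays, tissue means removed), the 10 other genes with the largest excess on an array that carried a member 2-fold, and genes defining each tissue. Replicate numbers do not pair arrays, so no block was used. Alternatives were other floors (none, 100), filters, normalizations, fits and left-out arrays. The number of arrays limits the precision. Promoters were read from RefSeq (GRCm38.p6), where all 10 genes matched. Gene roles are general knowledge.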

Additional observations from a re-analysis of the deposited data

Results flagged for a closer look

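The probe set that the annotation gives to Chil4 and Chil3 together, which no comparison used because it names more than 1 gene, read 453.8 on muscle UAG replicate 2. The saline arrays of muscle gave 21.55 and 42.65 and UAG replicate 1 gave 49.84, a 9.11-fold excess over the highest of them. Chil3 and Chil4 are neighbouring genes of closely similar sequence, and their part in this signal cannot be told apart.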

How the results depend on the processing

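The muscle values rest on UAG replicate 2. With a replicate left out in turn, the number of members 2-fold higher with UAG in muscle ranged from 0 to 9 and their median log2 difference from -0.15 to 3.94. The log2 difference in muscle ranged from -0.55 to 4.16 for S100a8, -0.57 to 4.99 for S100a9, -0.11 to 4.44 for Ngp, -0.14 to 4.18 for Camp, -0.64 to 2.53 for Ltf and -0.23 to 2.51 for Elane, with the lowest value without UAG replicate 2, except for Ltf, lowest without saline replicate 1. In WAT the number of members 2-fold lower with UAG ranged from 0 to 3, with 0 without saline replicate 2, and was 1 with a floor of 100. Differences that changed sign when a replicate was left out were those of Elane in WAT (-0.27 to 0.45), S100a9 in liver (-0.78 to 0.45), and between WAT and liver S100a8 (-0.078 to 1.21), S100a9 (-0.85 to 0.63, and 0.30 with a floor of 100) and Mpo (-0.39 to 0.03), none of them called. Between WAT and liver, 1 member was called by limma with no floor (Chil3, 2.19, adjusted p = 0.0396) and 1 in the fit to the 8 arrays of these tissues (Ngp). In the latter all WAT values of Ngp stood at the floor. For Chil3 all liver values (2.91 to 15.2) and both WAT UAG values (27 and 7.845) lay below 30. With the floor its difference was 0.65 and was not called, so the p without a floor is descriptive. With no floor, 2 members were 2-fold lower with UAG in liver. For the changes with the floor the cause was not tested.

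Over all probe sets, limma called 0 in WAT in the fit used, 14 with all 12 arrays in the model, 6 with a floor of 100 and 9 without a filter. With the replicate number as a block the count was 22 for WAT, 0 for muscle and 17 for liver (1 without the block). Crossing the numbers in WAT gave 0, a setting chosen after seeing the data. In liver it called 3 with all 12 arrays in the model, 2 with a floor of 100, and 0 without a filter, with a filter of 100 or with no intensity trend, and in muscle 4 with a floor of 100. The differences between same-numbered arrays correlated at -0.1755 (WAT), 0.1767 (muscle) and -0.02977 (liver), and the labels give no pairing. Low signal kept 5 members in WAT and 6 in liver out of the fits.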
